A study of Arabidopsis thaliana with 9 samples.

Results

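In isolated cauline buds of Arabidopsis, 51 of 13356 named genes were high on the arrays labelled mock, low on those labelled NAA (apical auxin), and intermediate on those labelled NAA+BA (the same auxin with a cytokinin, CK). The names mock and NAA are in doubt, as set out below, and every direction given here is that of the labels. They were chosen by their own group means: a mean log2 expression value above 6 in the mock, a mock mean at least 1 above the NAA mean, and an NAA+BA mean at least 0.5 above the NAA mean and at least 0.5 below the mock mean. Of the 428 genes that met the first pair of these conditions, 64 also met the step between NAA+BA and NAA, and 53 met all of them. COR15A and HIS1-3 were then removed by symbol, which left the 51. Because these means chose the genes, the levels in the 3 groups are a description. Calls of a fit over all probe sets are counted for these genes beside the share over the whole array, and neither they nor the means support anything about the order of the groups.

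Expression was measured on 9 Affymetrix ATH1 arrays, with 3 biological replicates in each of 3 groups. All buds were taken from the first cauline node of wild-type Col-0 plants 3-4 weeks old, on nodal stem segments kept in split agar plates for 18 h. The NAA+BA segments received 1 µM NAA (1-naphthaleneacetic acid, an auxin) apically and 1 µM BA (6-benzylaminopurine, a CK) basally, the NAA segments received 1 µM NAA apically, and the mock segments received ethanol apically. The bud is thus cut off from the rest of the shoot and from the root, no group received BA alone, and the number of buds behind an array is not given in the sources used here.

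Auxin made in young leaves moves down the stem and holds axillary buds inactive without entering them in quantity, whereas CK promotes their outgrowth. Genes known to be high in inactive or sugar-starved buds include those for stress proteins, autophagy and the breakdown of reserves, many of which also follow the day and the circadian clock. Of the 51 genes, 8 carry a symbol in the annotation and 43 are known here by locus only, so that roles can be given for the 8.

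The group names follow the deposited labels, and these are in doubt for the mock and NAA arrays. A list published with these arrays names probe sets lowered at least 2-fold by auxin alone and raised at least 2-fold by added CK. By the labels, 0 of the 220 probe sets on it were lower and 220 were higher on the NAA than on the mock arrays. On the NAA+BA arrays 220 of them were higher than on the mock arrays and 159 were higher than on the NAA arrays. The paper describes very few genes as differing between mock buds and buds given auxin plus CK. By the labels, the limma fit called 1241 probe sets between NAA+BA and mock, and 2 between NAA+BA and NAA. These calls needed an adjusted p under 0.05 (Benjamini-Hochberg) and a 2-fold change. By this count the arrays close to NAA+BA were those labelled NAA, not those labelled mock. The cause of the mismatch was not tested. If the names mock and NAA are exchanged, the 51 genes are highest with auxin alone, lowest in the control and intermediate with auxin plus CK.

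Across the 51 genes, the NAA mean was between 2.15-fold and 20.1-fold below the mock mean, with a median of 4.78-fold. The NAA+BA mean was between 1.43-fold and 10.05-fold below the mock mean, with a median of 2.78-fold. With NAA+BA the mean was 1.43-fold to 3.39-fold above that with NAA, with a median of 1.58-fold. The step between NAA+BA and NAA was thus the small one for most genes: it reached 2-fold in 7 genes, whereas NAA was at least 4-fold below the mock in 32 and at least 8-fold below it in 9. Expressed as the position of NAA+BA on the way between NAA and mock, in percent of their distance, the genes covered 16.6% to 70.7%, with a median of 32.7%. In 46 of the 51 the NAA+BA mean was nearer to NAA, and in 5 it was nearer to the mock (AT4G16146, PORB, AT2G47890, Fes1B and AT3G53990). With the names mock and NAA exchanged, the same values put NAA+BA nearer to the control in 46 genes, at a median of 67.3% of the way between auxin alone and the control. On the log2 scale the medians over the genes were 0.66 for NAA+BA minus NAA, -1.48 for NAA+BA minus mock and -2.26 for NAA minus mock, beside -0.003, 0.02 and 0.04 over all 13356 named genes.

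**Figure D1:**
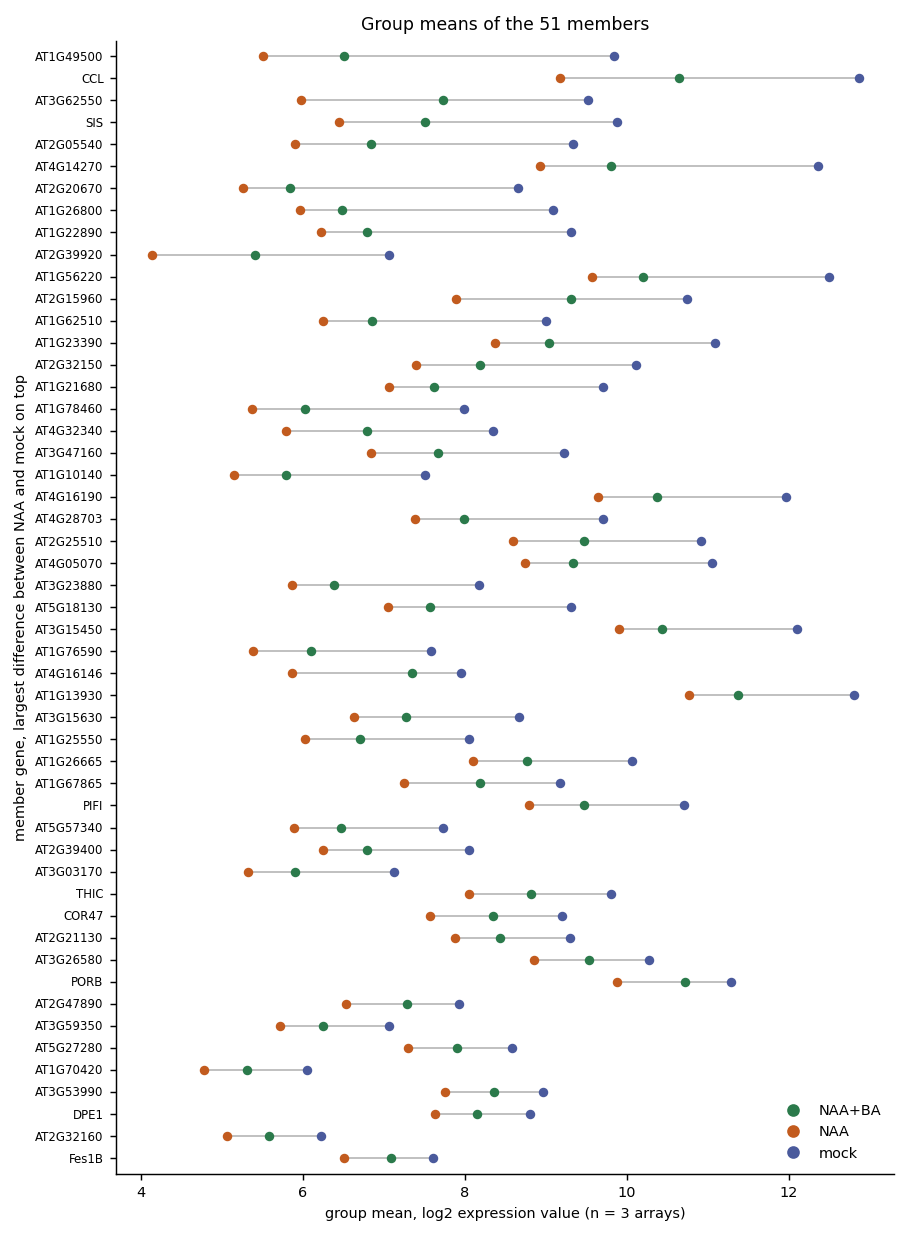
Mean log2 expression value (horizontal axis, n = 3 arrays) of each of the 51 genes with NAA+BA (green), NAA (orange) and mock (blue), ordered by the difference between NAA and mock. The green point lies between the other 2 in every row, as the rule requires, and in 46 rows it lies nearer to the orange point.

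**Figure D2:**
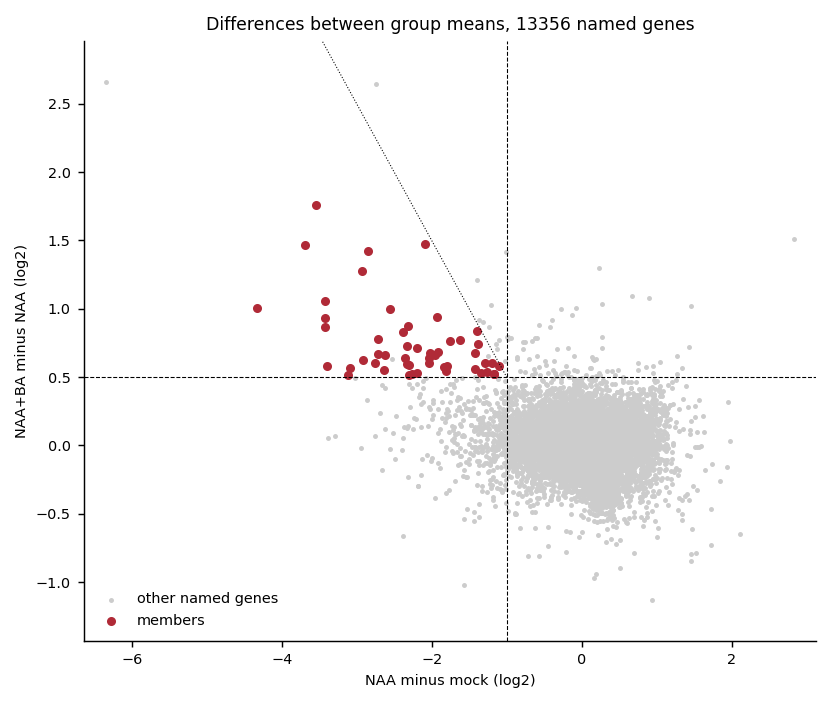
Difference between NAA+BA and NAA (vertical axis, log2) against the difference between NAA and mock (horizontal axis, log2) for 13356 named genes, with the 51 in red and the thresholds of the rule as lines (dashed for 1 and 0.5, dotted for the 0.5 between mock and NAA+BA). Most red points lie close above the horizontal line, and the grey points inside the bounded area are the genes removed by symbol or by the level in the mock.

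The replicate values show how far the arrays of the 3 groups were apart. In 49 of the 51 genes every NAA array was below every mock array, a separation that 13.1% of all named genes had. All NAA+BA arrays were below all mock arrays in 42 genes (13.5% of all named genes) and above all NAA arrays in 35 (5.08% of all named genes). The full order without any overlap, NAA below NAA+BA below mock, held in 31 genes, beside 0.839% of all named genes (112 genes). The means of the same arrays chose the genes, so nothing can be read from the distance to these shares. In the limma fit over all 22810 probe sets, a gene was called at an adjusted p under 0.05 (Benjamini-Hochberg) and a 2-fold change. By this measure 48 of the 51 were called lower with NAA than in the mock, where 3.51% of all probe sets were, and 35 were called lower with NAA+BA than in the mock, where 3.25% were. Between NAA+BA and NAA limma called 0 of the 51, and the background was 0.00877% (2 of 22810 probe sets called higher). At an unadjusted p under 0.05 from limma 36 of the 51 and 568 of the 22810 probe sets differed there, and the first count is one that the choice of the genes bears on. The genes not called between NAA and mock were PORB, AT2G32160 and Fes1B. With the replicate number as a block, 51, 36 and 1 of the genes were called in the comparisons of NAA with mock, NAA+BA with mock and NAA+BA with NAA, and with array weights 48, 38 and 4. Over the whole array the block called 1186, 1324 and 7 probe sets and the array weights 1734, 1861 and 30, so that the weights raised the number of calls generally. AT2G39920 was the gene called under the block between NAA+BA and NAA, and CCL, AT3G62550, AT2G15960 and AT4G16146 were those called with array weights.

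The widest distance between NAA and mock was that of AT1G49500. Its log2 values were 6.97, 6.21 and 6.35 on the NAA+BA arrays, 5.58, 5.50 and 5.44 on the NAA arrays and 10.50, 9.72 and 9.30 on the mock arrays. The NAA arrays lay close together and far below all mock arrays, and NAA+BA replicate 1 was the highest of the NAA+BA and NAA arrays. The means were 6.51 ± 0.41 with NAA+BA, 5.51 ± 0.07 with NAA and 9.84 ± 0.61 in the mock (SD, n = 3 each), so that NAA was 20.1-fold and NAA+BA 10.05-fold below the mock. NAA+BA was 2.00-fold above NAA, which is 23.1% of the way between NAA and mock.

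CCL (AT3G26740, CCR-like), whose transcript is known to be short-lived and to follow the circadian clock, came next. It had 10.28, 10.99 and 10.66 on the NAA+BA arrays, 8.56, 9.36 and 9.60 on the NAA arrays and 13.04, 12.84 and 12.71 on the mock arrays. The 3 groups did not overlap, and the mock arrays were close together while the NAA arrays spread over more than 1 unit. CCL was 12.9-fold lower with NAA and 4.67-fold lower with NAA+BA than in the mock, and 2.76-fold higher with NAA+BA than with NAA.

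AT3G62550 had the largest difference between NAA+BA and NAA of the 51 genes. Its values were 6.81, 7.62 and 8.78 on the NAA+BA arrays, 5.64, 5.74 and 6.55 on the NAA arrays and 9.21, 8.92 and 10.43 on the mock arrays. Replicate 3 was the highest array in each group, and the groups still did not overlap. The mean of NAA+BA was 1.76 above that of NAA and 3.44-fold below that of the mock, a position of 49.7%.

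SIS (AT5G02020, Salt Induced Serine rich) is named for its induction by salt. It had 7.78, 7.69 and 7.06 on the NAA+BA arrays, 6.52, 6.69 and 6.14 on the NAA arrays and 10.73, 10.10 and 8.78 on the mock arrays. Here replicate 3 was the lowest array in each group. Mock replicate 3 lay more than 1 unit below the other mock arrays yet above every NAA+BA and NAA array. With NAA the mean of SIS was 10.7-fold below the mock and with NAA+BA 5.15-fold.

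**Figure D3:**
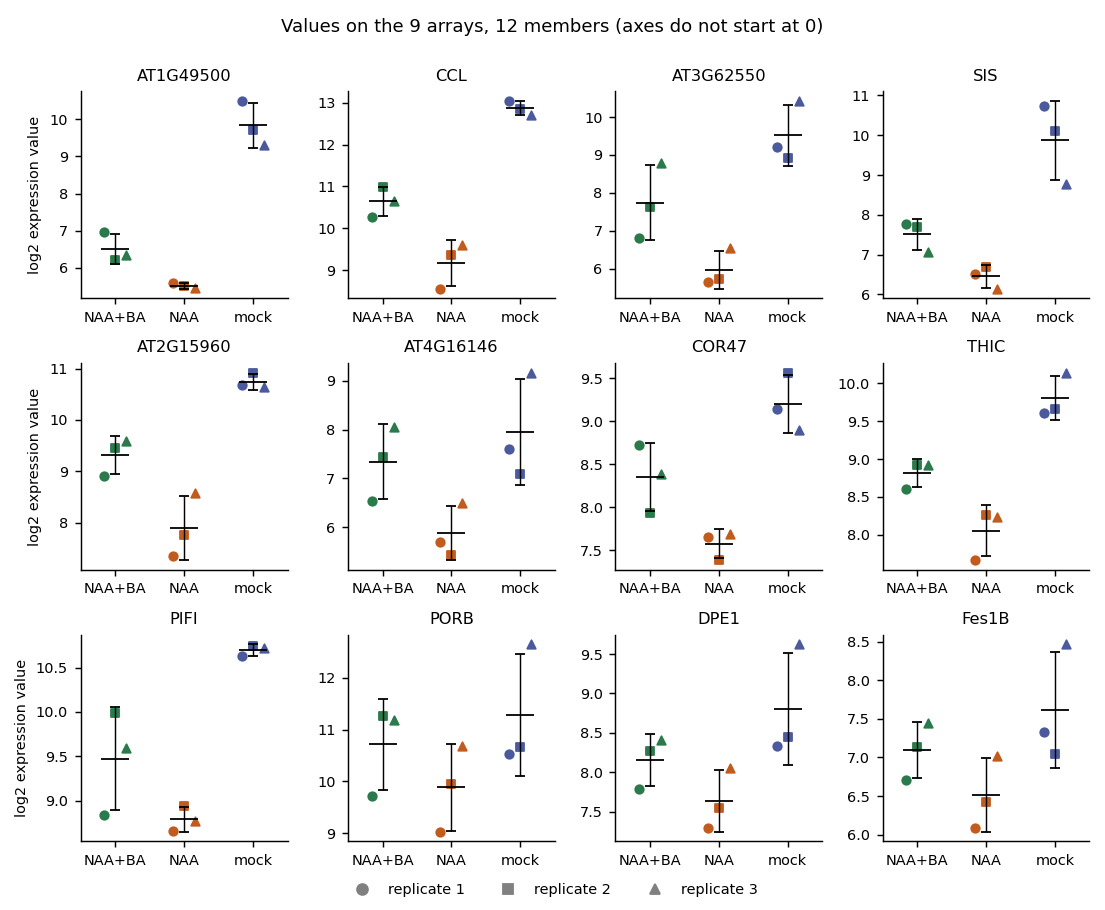
Log2 expression value (vertical axes, which do not start at 0) of 12 of the genes on the 9 arrays, with NAA+BA, NAA and mock in columns, replicates 1 to 3 as circle, square and triangle, horizontal bars at the group means and vertical bars of 1 SD. In AT1G49500, CCL and SIS the 3 columns do not overlap, whereas in PORB, DPE1 and Fes1B replicate 1 with NAA+BA lies below replicate 3 with NAA.

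Another 5 genes, known here by locus only, were at least 8-fold lower with NAA than in the mock. AT2G05540 had 7.19, 7.19 and 6.13 with NAA+BA, 5.98, 5.95 and 5.80 with NAA and 10.15, 8.95 and 8.89 in the mock, and AT4G14270 had 10.07, 9.92 and 9.41 with NAA+BA, 8.89, 9.03 and 8.87 with NAA and 12.77, 12.53 and 11.76 in the mock. Both were close together on the NAA arrays and showed no overlap between the groups, with NAA+BA 0.93 and 0.87 above NAA on the log2 scale. AT2G20670 had 5.88, 6.49 and 5.16 with NAA+BA, 5.31, 5.19 and 5.28 with NAA and 9.36, 7.74 and 8.87 in the mock. Here NAA+BA replicate 3 lay below every NAA array, so that its step of 0.58 rests on the other NAA+BA arrays. AT1G26800 had 6.90, 6.58 and 5.98 with NAA+BA, 6.09, 6.01 and 5.82 with NAA and 9.97, 9.15 and 8.13 in the mock. The mean of AT1G26800 was 0.52 higher with NAA+BA than with NAA, just past the threshold of 0.5, and at 16.6% its NAA+BA mean was the nearest to NAA of the 51 genes. AT1G22890 had 7.20, 6.83 and 6.34 with NAA+BA, 6.51, 5.86 and 6.30 with NAA and 9.70, 9.92 and 8.32 in the mock, with NAA+BA and NAA overlapping.

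The genes with the widest step between NAA+BA and NAA are only in part those with the widest step between NAA and mock: 6 genes, CCL, AT3G62550, SIS, AT1G49500, AT2G05540 and AT2G39920, are among the first 10 by both measures. AT4G16146 stood nearest to the mock with NAA+BA. It had 6.54, 7.43 and 8.06 on the NAA+BA arrays, 5.70, 5.42 and 6.49 on the NAA arrays and 7.60, 7.09 and 9.17 on the mock arrays. NAA+BA was above NAA on every array and overlapped with the mock, in which replicate 3 was far above the others, and the position was 70.7%. AT2G15960 had 8.91, 9.45 and 9.59 with NAA+BA, 7.35, 7.75 and 8.58 with NAA and 10.68, 10.92 and 10.63 in the mock. In AT2G15960 the NAA arrays were the ones that spread, no groups overlapped, and NAA+BA was 2.67-fold above NAA and 2.69-fold below the mock.

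AT2G39920 had 4.72, 5.19 and 6.33 with NAA+BA, 3.48, 4.05 and 4.88 with NAA and 6.68, 6.63 and 7.87 in the mock. Replicate 3 was the highest array in all groups, and NAA replicate 3 lay above NAA+BA replicate 1 although NAA+BA exceeded NAA by 1.28 on average. AT4G32340 had 6.28, 6.86 and 7.24 with NAA+BA, 5.59, 5.91 and 5.88 with NAA and 8.05, 7.92 and 9.06 in the mock, and AT1G67865 had 7.76, 8.19 and 8.62 with NAA+BA, 7.53, 7.09 and 7.12 with NAA and 9.31, 9.02 and 9.21 in the mock. Both showed no overlap between the groups, and NAA+BA exceeded NAA by 1.00 in AT4G32340 and by 0.94 in AT1G67865.

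AT1G56220 had 10.39, 10.32 and 9.89 with NAA+BA, 9.54, 9.57 and 9.62 with NAA and 12.85, 12.53 and 12.09 in the mock. The NAA arrays of AT1G56220 were nearly alike, and NAA+BA was 1.54-fold above them. AT1G62510 had 6.86, 6.84 and 6.86 with NAA+BA, 5.99, 6.18 and 6.58 with NAA and 9.34, 9.22 and 8.45 in the mock, and AT1G23390 had 9.08, 9.16 and 8.88 with NAA+BA, 8.05, 8.62 and 8.44 with NAA and 11.54, 11.08 and 10.62 in the mock. In both the 3 groups did not overlap, with NAA 6.74-fold below the mock in AT1G62510 and 6.55-fold in AT1G23390. AT3G53990 had 8.41, 8.43 and 8.25 with NAA+BA, 7.80, 7.81 and 7.67 with NAA and 8.93, 9.07 and 8.88 in the mock. Its differences were small, 0.60 for NAA+BA minus NAA and -1.20 for NAA minus mock, but the SD was at most 0.10 in each group, and NAA+BA stood midway at 50.2%.

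Array values are given in the text for 27 of the 51 genes. In the other 24 the NAA+BA mean was 0.51 to 0.83 above the NAA mean, with a median of 0.60, and -2.09 to -0.64 from the mock mean, with a median of -1.41. NAA minus mock was -2.64 to -1.27 in these 24, with a median of -2.03, and the position of NAA+BA was 20.9% to 53.7%. Every NAA array was below every mock array in all 24, beside 13.1% of all named genes. The NAA+BA arrays were below the mock arrays in 21 (13.5% of all named genes) and above the NAA arrays in 17 (5.08%). The 3 groups were without overlap, in the order NAA, NAA+BA, mock, in 15 (0.839%). The group means chose these genes too, so nothing is read from the distance to these shares.

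Of the 8 genes with a symbol, 4 belong to the chloroplast or its metabolism. PORB (AT4G27440), a protochlorophyllide oxidoreductase that makes chlorophyllide in the light, had 9.71, 11.27 and 11.18 on the NAA+BA arrays, 9.02, 9.94 and 10.69 on the NAA arrays and 10.54, 10.66 and 12.65 on the mock arrays. The groups overlapped throughout, and mock replicate 3 was the only mock array clearly above the NAA+BA and NAA arrays. The differences of the NAA+BA mean of PORB to NAA (0.84) and to mock (-0.56) were smaller in size than the SD of its NAA+BA arrays, 0.87. PIFI (AT3G15840), named for the rise of chlorophyll fluorescence after illumination, had 8.84, 9.98 and 9.59 on the NAA+BA arrays, 8.65, 8.94 and 8.77 on the NAA arrays and 10.63, 10.75 and 10.72 on the mock arrays. The mock arrays of PIFI were nearly alike and lay above all others, while NAA+BA replicate 1 lay between the NAA arrays, and NAA was 3.76-fold below the mock.

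THIC (AT2G29630) makes the pyrimidine part of thiamin in the chloroplast. It had 8.61, 8.92 and 8.92 on the NAA+BA arrays, 7.66, 8.26 and 8.23 on the NAA arrays and 9.61, 9.66 and 10.14 on the mock arrays. The groups did not overlap, and THIC was 3.37-fold lower with NAA and 1.99-fold lower with NAA+BA than in the mock. DPE1 (AT5G64860), the plastid disproportionating enzyme that acts on maltotriose when starch is broken down, had 7.79, 8.27 and 8.41 with NAA+BA, 7.29, 7.55 and 8.06 with NAA and 8.33, 8.45 and 9.62 in the mock. Replicate 3 was highest in each group of DPE1 and NAA replicate 3 lay above NAA+BA replicate 1, with a mean step of 0.52 between NAA+BA and NAA.

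COR47 (AT1G20440) is a dehydrin, a late embryogenesis abundant protein induced by cold, drought and abscisic acid (ABA). It had 8.73, 7.94 and 8.38 on the NAA+BA arrays, 7.66, 7.38 and 7.69 on the NAA arrays and 9.14, 9.57 and 8.90 on the mock arrays. No groups overlapped, and COR47 was 3.09-fold lower with NAA and 1.81-fold lower with NAA+BA than in the mock, at a position of 47.5%. Fes1B (AT3G53800) is a nucleotide exchange factor of HSP70 chaperones. It had 6.71, 7.13 and 7.44 with NAA+BA, 6.08, 6.43 and 7.02 with NAA and 7.33, 7.04 and 8.47 in the mock. As in DPE1 and PORB, replicate 3 was the highest mock array by more than 1 unit, and the groups overlapped. Without mock replicate 3, NAA+BA minus mock was -0.09 in Fes1B, -0.24 in DPE1 and -0.002 in AT4G16146, and in PORB it turned to 0.12.

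The deviations of single arrays differed between genes rather than moving them together. Replicate 3 was the highest array of all 3 groups in 5 genes (AT3G62550, AT2G39920, AT4G16146, DPE1 and Fes1B) and the lowest of all 3 in 7 (SIS, AT2G05540, AT4G14270, AT1G26800, AT3G23880, AT3G15450 and AT3G53990). These make 12 of the 51 genes, beside 3936 of the 13356 named genes (29.5%). Over the 51 genes the median deviation of mock replicate 3 from the mock mean was -0.18, with a range of -1.51 to 1.36. It was -0.49 over 361 other genes, which met the same conditions on the mock and on NAA but had NAA+BA under 0.5 above NAA, and 0.01 over all named genes. Among those 361, replicate 3 was lowest in all groups in 130 (36.0%). The median SD of the 51 was 0.35 with NAA+BA, 0.28 with NAA and 0.44 in the mock, against 0.22, 0.21 and 0.48 in the other 361 and 0.13, 0.16 and 0.21 over all named genes.

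**Figure D4:**
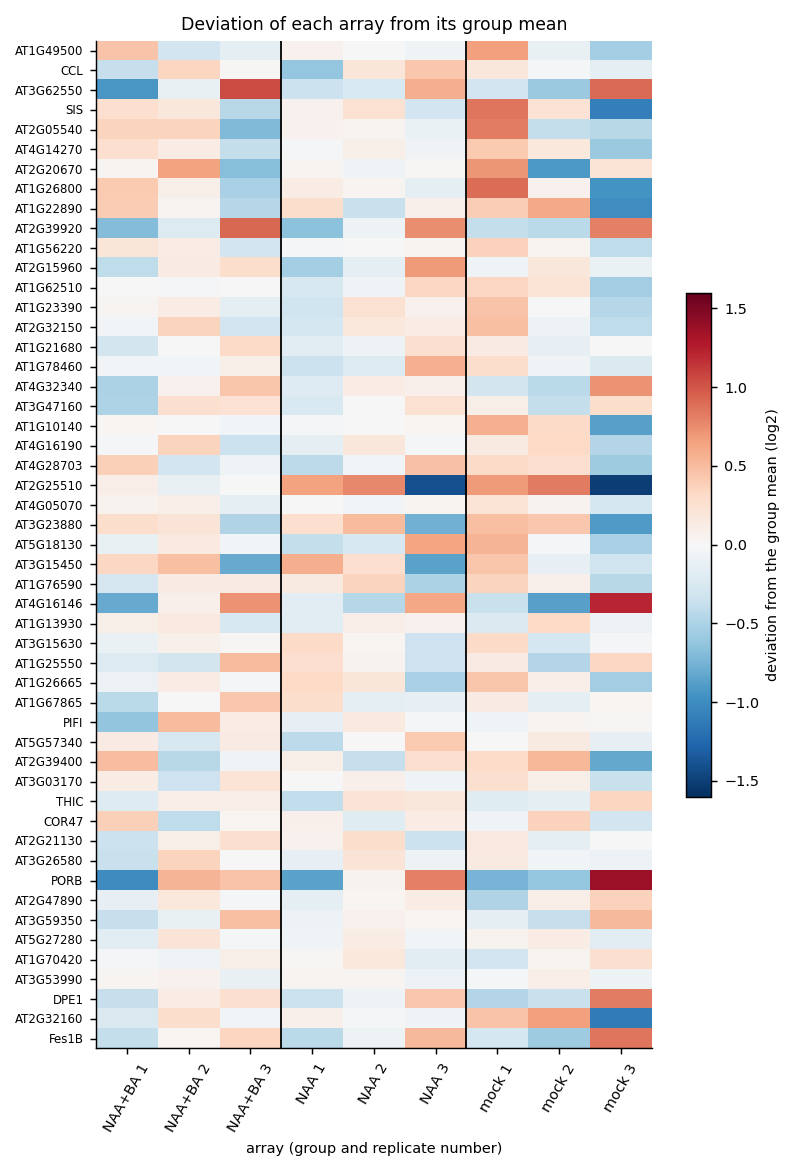
Deviation of each array from its group mean (colour, log2, red above and blue below) for the 51 genes (rows, in the order of the difference between NAA and mock) on the 9 arrays (columns, NAA+BA, NAA and mock). The strongest blue and the strongest red both fall in mock replicate 3, with -1.51 in AT2G25510 and 1.36 in PORB. NAA replicate 3 reached -1.41.

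Several genes owe their place to few arrays. AT2G25510, taken up here after its values were seen, had 9.58, 9.35 and 9.48 on the NAA+BA arrays, 9.24, 9.36 and 7.19 on the NAA arrays and 11.59, 11.75 and 9.41 on the mock arrays. NAA replicate 3 was more than 2 units below the other NAA arrays, which overlapped with NAA+BA, and without that array NAA+BA exceeded NAA by 0.17 in place of 0.87, and AT2G25510 would not be chosen. Without the same array the step was 0.10 in AT3G15450 and 0.13 in AT3G23880, in place of 0.53 and 0.51. AT2G32160 had 5.34, 5.86 and 5.54 with NAA+BA, 5.14, 5.04 and 5.005 with NAA and 6.69, 6.89 and 5.11 in the mock. Its mock replicate 3 lay within the NAA arrays. Leaving out 1 array at a time, 22 genes met the rule whichever array was missing and 29 failed it without at least 1 array, of which 13 depended on exactly 1 array and 9 on 3 or more. DPE1 was lost without any of 6 arrays. NAA+BA minus NAA changed by more than 1.5 times without some single array in 18 of the 51 genes, NAA+BA minus mock in 6 and NAA minus mock in 3. The number of genes that met the rule lay between 47 and 64 in these repeats, of which 41 to 50 were among the 51.

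The order of the groups was also read on arrays that had no part in choosing the genes. This description was added after the data were seen. The rule was applied to the 6 arrays of 2 replicate numbers, and the group values were then read on the 3 arrays of the number left out. This chose 57, 61 and 53 genes with numbers 1, 2 and 3 left out, of which 38, 43 and 36 were among the 51, and 22 of the 51 were chosen each time. On the arrays left out, NAA+BA was above NAA in 50, 56 and 45 of the genes (87.7%, 91.8% and 84.9%). Among genes equally 2-fold or more lower with NAA but with under 0.5 between NAA+BA and NAA on the 6 arrays, the shares were 60.2%, 63.8% and 49.4%, and over all named genes 53.9%, 43.6% and 49.9%. The full order of NAA below NAA+BA below mock appeared in 48, 49 and 42 genes (84.2%, 80.3% and 79.3%), beside 17.2%, 15.3% and 16.1% of all named genes. The genes were chosen with NAA far below mock on the other 6 arrays, so all named genes are not a like comparison here. The other mock-high genes were picked for a small step between NAA+BA and NAA on those 6 arrays, so they are not a neutral comparison either. The full order was not counted in them, and nothing is read from the distance between any of these shares. The median of NAA+BA minus NAA was 0.50, 0.66 and 0.39 on the arrays left out, and 0.66, 0.66 and 0.71 on the arrays that chose the genes. For numbers 1 and 3 the step was thus smaller on arrays that the choice had not used. Genes on an array are not independent of each other and arrays with the same number may share a batch, so no test was made of these shares.

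**Figure D5:**
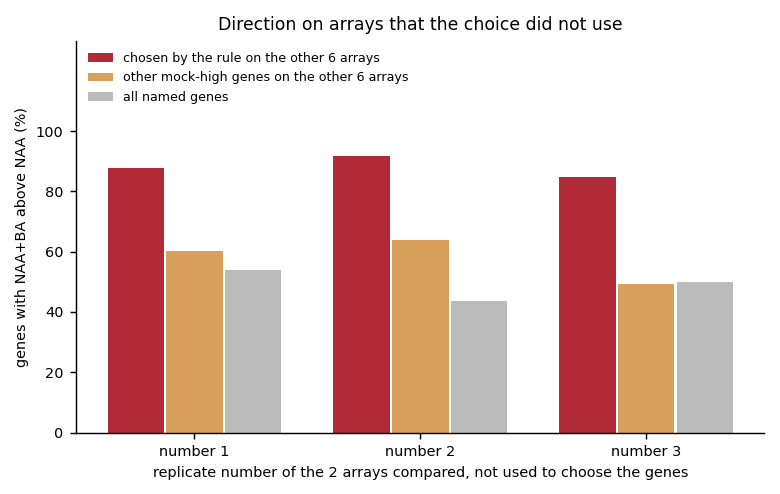
Share of genes in which NAA+BA was above NAA (vertical axis, %) on the 2 arrays of replicate number 1, 2 or 3 (horizontal axis), for genes chosen by the rule on the other 6 arrays (red), other mock-high genes chosen on those 6 (tan) and all 13356 named genes (grey). The red bars stand at 84.9% to 91.8% and the tan ones at 49.4% to 63.8%. Both sets were picked by their step between NAA+BA and NAA on the other 6 arrays, so nothing is read from the distance between the bars.

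For the step between NAA+BA and NAA, the genes just inside the threshold were AT3G23880 (0.51), AT1G26800 (0.52) and AT5G18130 (0.52), and just outside AT2G24160 and AER (0.50 each, below the threshold before rounding) and AT5G45310 (0.49), and 361 genes failed on this condition alone. For NAA+BA minus mock, Fes1B (-0.52), PORB (-0.56) and AT3G53990 (-0.60) were nearest inside. GI (-0.45), AT5G05600 (-0.43) and AT4G01130 (-0.41) were nearest outside, and 11 genes failed on this condition alone. The lowest mock means inside were 6.05 in AT1G70420, 6.23 in AT2G32160 and 7.06 in AT2G39920, and AT5G43440 (5.99) was outside. The smallest distances of NAA to mock were -1.10 in Fes1B, -1.17 in AT2G32160 and -1.17 in DPE1, and the sum of the other steps leaves no gene that could fail on this condition alone.

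By their loci, 16, 11, 12, 7 and 5 of the genes lie on chromosomes 1 to 5. AT2G32150 and AT2G32160 are the only members that adjoin each other in the RefSeq gene order, and the values of AT2G32150 were 8.14, 8.53 and 7.88 with NAA+BA, 7.12, 7.57 and 7.52 with NAA and 10.59, 10.04 and 9.71 in the mock. AT2G32150 kept its groups apart, at 6.55-fold lower with NAA than in the mock, while those of AT2G32160 overlapped. Another 50 neighbouring genes of the members were measured, of which 3 were at least 2-fold lower with NAA than in the mock, beside 3.37% of all named genes, with a median of -0.05 for NAA minus mock.

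COR47 was the only one of the 51 genes matched by name to the gene lists drawn up for pathways and families. It was in those for ABA response and for late embryogenesis abundant and dehydrin genes. Most genes on the pathway lists found no match among the named genes. Members known here by locus only may thus be listed genes that were missed. Of 63 genes on the ABA list 5 were measured under a name. Of these 5, 4 were called lower with NAA and 3 with NAA+BA than in the mock. XERICO, a RING-type protein that raises ABA levels, had 8.91, 8.75 and 8.56 with NAA+BA, 8.80, 8.77 and 8.53 with NAA and 10.87, 10.49 and 9.93 in the mock, and LTI30, a dehydrin, had 5.13, 4.69 and 4.38 with NAA+BA, 4.69, 4.54 and 4.55 with NAA and 6.26, 8.18 and 5.49 in the mock. In both the NAA+BA arrays overlapped with the NAA arrays, whereas those of COR47 lay above them. The 5 measured genes of the late embryogenesis abundant and dehydrin list gave the same counts, 4 and 3. LTI30, LEA4-5 and COR47 are on both lists, so these counts come largely from the same genes. LEA4-5 (-2.69 for NAA minus mock) and LEA18 (-2.31) were the farthest from the mock, and the median of NAA+BA minus NAA was 0.14. COR47, at 0.77, was the only gene of either list past 0.5.

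Autophagy genes take part in recycling cell contents in starved and senescing tissue. Of 37 listed, 10 were measured under a name. Of these 10, 4 were called lower with NAA than in the mock (ATG8E, ATG8H, ATG8B and ATG8F) and 2 with NAA+BA. The median of NAA+BA minus NAA was 0.13. The gibberellin and brassinosteroid list had 4 of 34 genes measured. Of these 4, the gibberellin receptors GID1A, GID1B and GID1C were called lower in both comparisons, with -1.37, -1.19 and -1.26 for NAA minus mock. Their median for NAA+BA minus NAA, with the fourth gene, was -0.03. Among 9 carbon starvation genes measured of 61 listed, 2 were called lower with NAA and 1 with NAA+BA. Among 9 photosynthesis genes measured of 42 listed, these counts were 0 and 1. Such small parts do not give the state of a whole pathway. Over all named genes, 416 were called lower and 155 higher with NAA than in the mock.

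Of 3 light and clock genes measured (53 listed) 1 was called lower with NAA than in the mock and 0 with NAA+BA. Of 4 cold and dehydration genes measured (41 listed) 2 were called lower in each comparison. A gene of each of these lists had a pattern near that of the 51. GI, a clock protein that controls flowering time, had 7.20, 7.66 and 8.03 with NAA+BA, 6.44, 6.76 and 6.94 with NAA and 7.69, 7.74 and 8.80 in the mock. Its NAA+BA mean exceeded the NAA mean by 0.92 and fell short of the mock mean by less than 0.5, and replicate 3 was highest in each group. COR15B, a chloroplast cold-response protein, had 7.50, 8.89 and 8.69 with NAA+BA, 7.01, 7.87 and 7.10 with NAA and 7.50, 8.63 and 9.51 in the mock, with overlap between all groups and no call in any comparison.

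Markers of other tissues were measured beside these values. Of 31 markers for meristem, primordia and boundaries, 5 were measured under a gene name (YAB5, CLV3, YAB3, PHV and LAS), and 4 of these had a mean above 5 in each group. Their summed log2 values were 34.8 to 35.7 on the NAA+BA arrays, 35.1 to 35.7 on the NAA arrays and 33.1 to 34.6 on the mock arrays. Of 11 green leaf markers, RCA and LHCB4.2 were measured, and their sum was 25.1 to 25.7 with NAA+BA, 25.3 to 25.7 with NAA and 26.4 to 27.0 in the mock. For 2 of 13 root markers (PYK10 and EXPA7) the sums were 8.23 to 9.55, 8.56 to 8.82 and 9.73 to 11.4 in the same order. The sums of the few green leaf and root markers measured were thus higher on the mock arrays than on the others, the direction of the 51 genes. Those of the meristem, primordia and boundary markers went the other way and were lower on the mock arrays. In each of these marker sets the sums with NAA+BA overlapped with those with NAA. The root markers were dim, with 0 above 5 with NAA+BA or NAA and 1 in the mock. The part of these markers in the results was not tested. The lists for stem vascular tissue (25 genes) and floral organs (13) had 0 named probe sets. In whole buds, fewer cells of a type and less RNA per cell cannot be told apart.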

How the data were processed

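RNA from cauline buds was hybridised to 9 ATH1 arrays, 3 in each group. The authors made log2 values of 22810 probe sets with RMA in R 2.15 and deposited them; array medians lay between 6.99 and 7.11, and precision is limited by there being 3 arrays a group. No value was filtered. The platform table names 14016 probe sets, 13513 of them with 1 gene; taking for each gene its probe set of highest mean left 13356 genes, and 50 of the 51 chosen matched RefSeq (TAIR10.1) by gene ID. Groups follow the labels.

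All probe sets were fitted as 3 group means with limma 3.58.1 in R 4.3.3 (lmFit, eBayes, Benjamini-Hochberg adjustment), and a call needed a 2-fold change at an adjusted p under 0.05; counts and medians were made in Python 3.11.15 with pandas 2.3.3. The fit was tested on simulated data. The genes, the gene lists (ABA response, late embryogenesis abundant and dehydrin genes, autophagy, gibberellin and brassinosteroid, carbon starvation, photosynthesis, light and clock, cold and dehydration), the tests and the alternatives were chosen with earlier results of these data known. Genes were named where they were among the 10 largest in NAA minus mock or NAA+BA minus NAA, the first 10 without overlap, the 3 nearest each threshold, list members, or annotated; AT2G47890, AT3G15450, AT2G25510 and AT2G32150 were named after their values were seen.

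The replicate number was no term of the fit. Deviations of same-numbered arrays correlated at 0.32, 0.38 and 0.45 between NAA and mock, each array best with its own number, so the numbers pair these samples. They correlated at 0.24, 0.08 and 0.51 between NAA+BA and mock and at 0.04, 0.30 and 0.37 between NAA+BA and NAA, where they do not. Alternatives were the replicate block, each array left out, other normalizations, array weights, an intensity trend, a filter on dim probe sets, other call thresholds, and other limits of the rule. Promoter motifs were not analysed here.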

Additional observations from a re-analysis of the deposited data

How the results depend on the processing

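Rerun with steps of 0.4 or 0.6 in place of 0.5 between NAA+BA and the other groups, the rule chose 78 or 31 genes in place of 51. With mock and NAA exchanged in the rule it chose 7 genes of the opposite profile, of which 0 are among the 51. Quantile normalization applied again gave 45 and centring on the array medians 41, all among the 51, and leaving out 1 array at a time gave 47 to 64. With a mock mean above 5 or above 7 it chose 52 or 49. In these leave-one-out repeats the median position of NAA+BA between NAA and mock, over the 51 genes, was 29.6% to 35.2%. The 31 genes without overlap became 32 to 37, a count that leaving out an array cannot lower, so it shows no stability. On arrays of a single number the position was 29.1%, 37.1% and 34.6%.

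Leaving out 1 array, 45 to 48 of the 51 genes were called between NAA and mock, 31 to 36 between NAA+BA and mock and 0 between NAA+BA and NAA. Calls over the whole array were less steady. Between NAA and mock they went from 732 without mock replicate 1 to 2041 without mock replicate 3, in place of 1091. Between NAA+BA and mock they went from 741 to 2167 without the same arrays, in place of 1241. Between NAA+BA and NAA the replicate block called 1 of the 51 genes and array weights 4. Under the block 51 were called between NAA and mock and 36 between NAA+BA and mock. The cause of these differences was not tested. Single differences of the 51 genes had 1224 values under the alternatives. Among them 1 reversed (PORB, NAA+BA minus mock, -0.56, which leaving out 1 array made -0.94 to 0.12, with 0.12 without mock replicate 3) and 1 moved by more than the spread between replicates (AT1G10140, NAA+BA minus NAA, 0.58 with centring). That spread holds the array left out, so it does not show stability: 18 genes changed NAA+BA minus NAA by over 1.5 times without some single array, and AT2G25510 had 0.17 without NAA replicate 3 in place of 0.87. NAA+BA minus mock was added to these values after the data were seen. With 3 arrays a group, steps near 0.5 cannot be told apart from the spread between replicates for many of these genes.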
